A study of Mus musculus with 4 samples.

Results

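The 10 genes described here encode subunits, inhibitors and feedback regulators of the transcription factor NF-κB: *Rela*, *Rel*, *Relb*, *Nfkb1*, *Nfkb2*, *Bcl3*, *Nfkbid*, *Nfkbia*, *Tnfaip3* and *Birc3*. They were taken as a fixed list of symbols and matched by Entrez identifier, and all 10 were found among the 17667 genes listed in at least 1 of the 4 RNA-seq libraries and among the 15275 listed in every library. The libraries came from sympathetic ganglia (SG) at T1–T4, whose neurons reach the interscapular brown fat, of mice 12 weeks old kept at 5 °C for 1 day, a condition shared by the controls. WT mice gave 2 libraries (WT 1 and WT 2). Mice labelled TRKC+/-, which carry a germline loss of 1 allele of the NT-3 receptor gene *Ntrk3*, gave 1 library. AdNTF3-Tg mice, in which a promoter active in adipocytes, that of adiponectin, drives *Ntf3*, gave 1 library. Each library pooled the ganglia of several mice, so differences between mice cannot be seen within it, and all cell types of the ganglia were measured together. The labels do not say which WT library belongs to which mutant cohort, and each mutant library was therefore set against WT 1 and WT 2 in turn, so that both comparisons share their controls.

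NF-κB acts as dimers of the Rel proteins. In resting cells IκB proteins hold the dimers in the cytoplasm, and signals from receptors such as those of TNF and interleukin-1 activate kinases that lead to loss of IκB and entry of the dimers into the nucleus. BCL3 is an atypical IκB protein of the nucleus that binds homodimers of p50 or p52, the DNA-binding products of *Nfkb1* and *Nfkb2*, and can turn their target genes on or off. Several of the inhibitors are themselves NF-κB targets and form negative feedback, and in ganglia NF-κB is known from neurons, glia and immune cells.

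To show where such feedback could be read in sequence, the members' promoters were searched for the κB consensus, the 10-base motif bound by NF-κB dimers, on both strands, with overlapping matches merged. RefSeq windows of 300 bases on GRCm38.p6, 250 before and 50 after a transcription start, were given for 8 of the 10 members (not for *Nfkb1* and *Relb*), and the most upstream window of each gene was used. A match was present in 5 of these 8, *Rel*, *Nfkb2*, *Bcl3*, *Nfkbia* and *Tnfaip3*, against 4.32% of the 27025 genes with a window, and none was present in the windows of *Rela*, *Nfkbid* and *Birc3*. In *Nfkbid*, 1 of 3 windows held a match when later starts were included. The stretches below are printed 5′ to 3′ on the strand of the gene to show the letters matched in each member, with the matched bases in capitals. Since they were found with 1 consensus, their likeness to each other is fixed by the search.
Bcl3: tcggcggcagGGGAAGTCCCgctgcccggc
Nfkbia: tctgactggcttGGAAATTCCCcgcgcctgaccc
Nfkb2: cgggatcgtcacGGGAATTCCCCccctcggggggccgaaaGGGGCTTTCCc
Rel: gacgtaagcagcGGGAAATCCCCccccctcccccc
Tnfaip3: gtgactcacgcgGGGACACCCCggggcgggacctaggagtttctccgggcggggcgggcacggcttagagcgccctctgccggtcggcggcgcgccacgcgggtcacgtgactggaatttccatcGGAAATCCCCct
These stretches lie on the minus strand at chr7:19822734-19822763 for *Bcl3*, on the minus strand at chr12:55492655-55492688 for *Nfkbia*, on the plus strand at chr19:46304686-46304736 for *Nfkb2*, on the minus strand at chr11:23771039-23771073 for *Rel* and on the minus strand at chr10:19015411-19015547 for *Tnfaip3*. Positions are counted from the start of the window used, which for *Rel*, *Nfkbia*, *Tnfaip3* and *Nfkbid* is the 5′ end of the RefSeq gene, but lies inside the RefSeq gene by 35 bases for *Birc3*, 69 for *Bcl3*, 99 for *Rela* and 3743 for *Nfkb2*. The *Bcl3* match lay after this start, at bases 3 to 12, whereas the *Nfkbia* match lay 29 to 20 bases before it. *Nfkb2* had matches at −39 to −29, where 2 overlapping matches were merged, and at −11 to −2. *Rel* had 2 overlapping matches at −92 to −82, and *Tnfaip3* had matches at −125 to −116 and at −12 to −3. A match is a description of the letters and no evidence of binding in these ganglia.

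**Figure D1:**
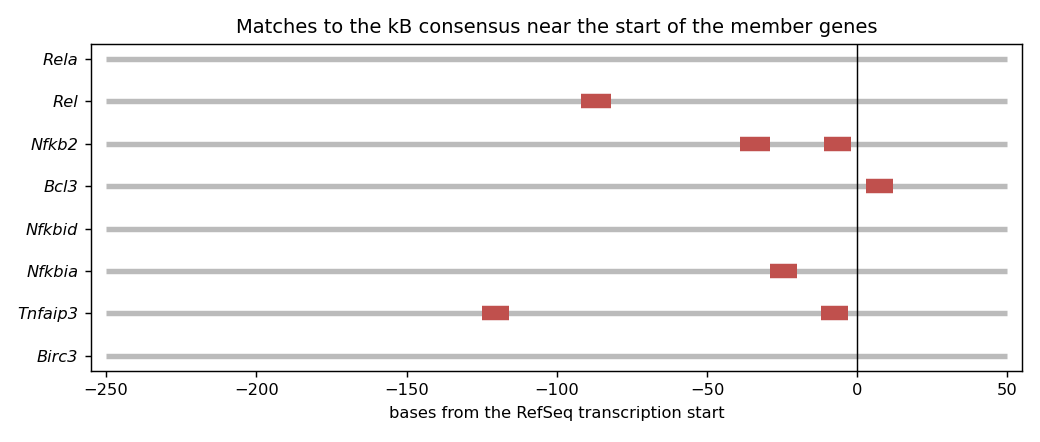
Matches to the κB consensus in the most upstream RefSeq window of the 8 members with a window; the x axis gives bases from the transcription start of the window (vertical line), which for *Rela*, *Birc3*, *Bcl3* and *Nfkb2* lies inside the RefSeq gene, grey bars the windows and red blocks the matches. Blocks are present in 5 members, and the *Bcl3* block lies to the right of the line.

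Expression was read as FPKM, the reads of a gene scaled to its length and to the library, and as the expected number of reads behind it. Depth was similar in the libraries, between 8665955 and 8894985 reads on genes, and 3 reads, taken as the smallest signal the depth can show, were between 0.337 and 0.346 CPM (reads scaled to library size). The targeted gene did not follow its label, since *Ntrk3* had 2.45 FPKM in WT 1, 2.52 in WT 2, 2.32 in AdNTF3-Tg and 2.72 in the library labelled TRKC+/-. Directions given for that library therefore stand for its label, not for a loss of *Ntrk3* reads measured in these libraries. *Ntf3* had 2 reads there and none were listed for it elsewhere. The tissue was as labelled, with summed FPKM of 7 sympathetic neuron markers between 8134 and 8827. Other tissue differed between the libraries. The 7 skeletal muscle markers, all listed in every library, summed to 91.7 FPKM in WT 1, 42.6 in the library labelled TRKC+/-, 33.1 in AdNTF3-Tg and 2.71 in WT 2, and 5 adipocyte markers summed to 326.5, 167.4, 233.0 and 297.9 FPKM in the same order. Macrophage markers (7 of 7 listed in every library) summed to between 105.9 and 144.8 FPKM, with the lowest sum in AdNTF3-Tg. T cell and B cell markers had at most 9 reads per library, with *Cd3d*, *Trac* and *Ms4a1* not listed and sums of at most 0.65 and 0.99 FPKM. Of the neutrophil markers *Ly6g* was not listed, *S100a8* and *S100a9* had at most 4 reads, and *Cxcr2*, a chemokine receptor gene whose counts were fractional, was lower in AdNTF3-Tg (1.17 FPKM) than in WT 1 (3.07 FPKM) and WT 2 (1.95 FPKM), by −1.32 (−2.04 to −0.78) and −0.69 (−1.40 to −0.04) on the log2 scale. *Csf3r*, the other neutrophil marker listed in every library, was even at 0.70 to 0.78 FPKM. The adipocyte genes *Ucp1* and *Fabp4* were lower in the library labelled TRKC+/- than in both WT libraries, with differences of −0.86 and −0.74 for *Fabp4*. The other adipocyte markers did not share a fall of this size. *Adipoq* had 9.0 FPKM in that library, between WT 2 (7.56) and WT 1 (14.03). *Plin1* had 5.25 FPKM against 6.17 in WT 1 and 5.86 in WT 2, and *Cidec* had 10.94 against 14.99 and 11.61. The part of these tissues in the values below was not tested.

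The members fell into 4 tiers of expression, which are compared here as FPKM and so per length. *Nfkbia*, the inducible IκBα that retains NF-κB in the cytoplasm, and *Rela*, the p65 subunit that carries a transactivation domain, were highest, with medians over the 4 libraries of 18.4 and 17.2 FPKM and ranges that overlapped. *Nfkb1* followed alone at 10.5 FPKM. *Nfkb2*, *Birc3*, *Relb* and *Bcl3* formed the next tier with medians of 6.05, 5.98, 5.75 and 4.01 FPKM, and each overlapped with its neighbour. *Tnfaip3*, *Nfkbid* and *Rel* were lowest, with medians of 1.17, 1.04 and 0.61 FPKM and neighbouring ranges that overlapped or met. Among all genes listed in every library, these medians stood between the 12.3 percentile (*Rel*) and the 71.1 percentile (*Nfkbia*). The expected counts of the members were whole in all 4 libraries, so that no member's reads had been divided with another gene. The counting is not stated to use strand, and on RefSeq *Nfkb2* overlaps *Psd*, which was listed, while *Bcl3* overlaps *Gm16174* and *Nfkb1* overlaps *Gm46827*, which were not. Reads of such overlapping genes cannot be told apart.

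**Figure D2:**
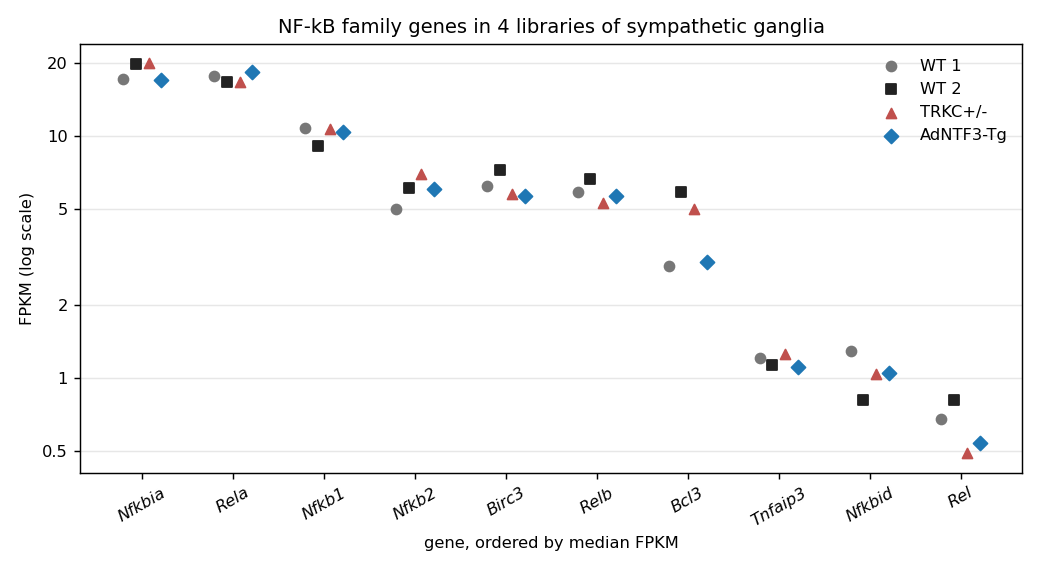
FPKM of the 10 members on a log axis, with 1 point per library and genes ordered by their median. *Bcl3* spans 2.90 to 5.88 FPKM with WT 1 and AdNTF3-Tg at the bottom, while *Nfkbia* and *Rela* stay between 16.6 and 19.9 FPKM in every library.

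The question for the mutant libraries was whether more or less NT-3 signalling went with a change of these genes in cold-exposed ganglia. The study's cutoff was an absolute log2 difference of at least 0.5, with each mutant group beside its respective WT mice. Here it had to be passed in the same direction against both WT libraries, which is stricter. None of the 10 members did so in either mutant library. Over all 15275 genes this occurred for 4.27% in the library labelled TRKC+/- (272 higher, 381 lower) and 5.7% in AdNTF3-Tg (324 higher, 547 lower). At these shares fewer than 1 of 10 genes would be called, so that a count of 0 is close to the background. In edgeR's quasi-likelihood test, in which the spread came from the 2 WT libraries alone with 1 residual degree of freedom and the mutant libraries were assumed to vary as the WT libraries do, 0 of 10 members passed a Benjamini-Hochberg adjusted p of 0.05. Of the 14156 genes tested, 0.00706% passed in the library labelled TRKC+/-, which was *Ucp1* alone, and 0% passed in AdNTF3-Tg. At an unadjusted p under 0.05, 273 and 832 genes passed, no member among them, and DESeq2 called 2 and 0 genes. Members fell outside the range of the WT libraries about as often as other genes did, in 7 of 10 (all genes 62.6%) in the library labelled TRKC+/- and in 6 of 10 (all genes 67.6%) in AdNTF3-Tg. Their median log2 difference from the WT mean was 0.06 and −0.09, against 0.00 over all genes in both.

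*Bcl3* (Entrez 12051; chromosome 7, 19808462 to 19822824 on GRCm38.p6) varied most among the members, and most of all between the WT libraries. It had 2.90 FPKM (45 reads) in WT 1, 5.88 FPKM (92 reads) in WT 2, 5.00 FPKM (79 reads) in the library labelled TRKC+/- and 3.02 FPKM (47 reads) in AdNTF3-Tg. WT 1 and AdNTF3-Tg were thus low and WT 2 and the library labelled TRKC+/- high, and each mutant library lay within the range set by the WT libraries. The WT libraries differed 2.03-fold, a log2 difference of 1.00 with a 95% counting interval of 0.47 to 1.55. Intervals here and below were derived by the exact Clopper-Pearson method from the reads of a gene in a pair of libraries and cover counting error only. The skeletal muscle marker sum was highest in WT 1, where *Bcl3* was lowest, and lowest in WT 2, where *Bcl3* was highest. Between the mutant libraries it was higher where *Bcl3* was higher, with 42.6 FPKM in the library labelled TRKC+/- and 33.1 in AdNTF3-Tg. The sums of the glia and fibroblast markers were also highest in WT 1 and lowest in WT 2. The part of these tissues in the differences of *Bcl3* was not tested.

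Against WT 1, the log2 difference of *Bcl3* was 0.77 (0.23 to 1.34) in the library labelled TRKC+/- and 0.06 (−0.58 to 0.66) in AdNTF3-Tg. Against WT 2 the values were −0.23 (−0.68 to 0.22) and −0.94 (−1.50 to −0.44). Hence *Bcl3* passed the cutoff upward in the library labelled TRKC+/- with WT 1 as control and downward in AdNTF3-Tg with WT 2 as control, and in neither with the controls exchanged. The names of the deposited tables place WT 1 in the TRKC cohort and WT 2 in the AdNTF3 cohort, which is no sample label and was not used. In edgeR the log2 fold change against WT was 0.18 (SE 0.40, adjusted p = 0.999) in the library labelled TRKC+/- and −0.54 (SE 0.43, adjusted p = 0.84) in AdNTF3-Tg. The study had shown *Bcl3* among genes it chose on these same libraries, *Gm2026* and *Cxcl10* among them, and its direction here is no independent evidence. The study also measured some of the genes it chose by RT-PCR, a separate measure that is not drawn on here. In bulk RNA, a change in the number of cells with a transcript cannot be told apart from a change of transcript per cell.

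With WT 1 as control of the library labelled TRKC+/-, 10.7% of genes passed the cutoff and 3% also had a counting interval that excluded 0, and *Bcl3* was the only member among either. With WT 2 as control of that library the shares were 12.7% and 4.56%, *Rel* passed the cutoff, and no member had an interval that excluded 0 as well. For AdNTF3-Tg, 13.9% and 5.73% of genes passed against WT 1, with no member among them. Against WT 2, 13.3% and 5.05% passed, with *Rel* and *Bcl3* among the first and *Bcl3* among the second. Between WT 2 and WT 1, 13.4% and 5.15% of genes passed, with *Bcl3* and *Nfkbid* among the first and *Bcl3* among the second. A WT pair thus gave as many members past the cutoff as any pair of a mutant with a WT library.

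**Figure D3:**
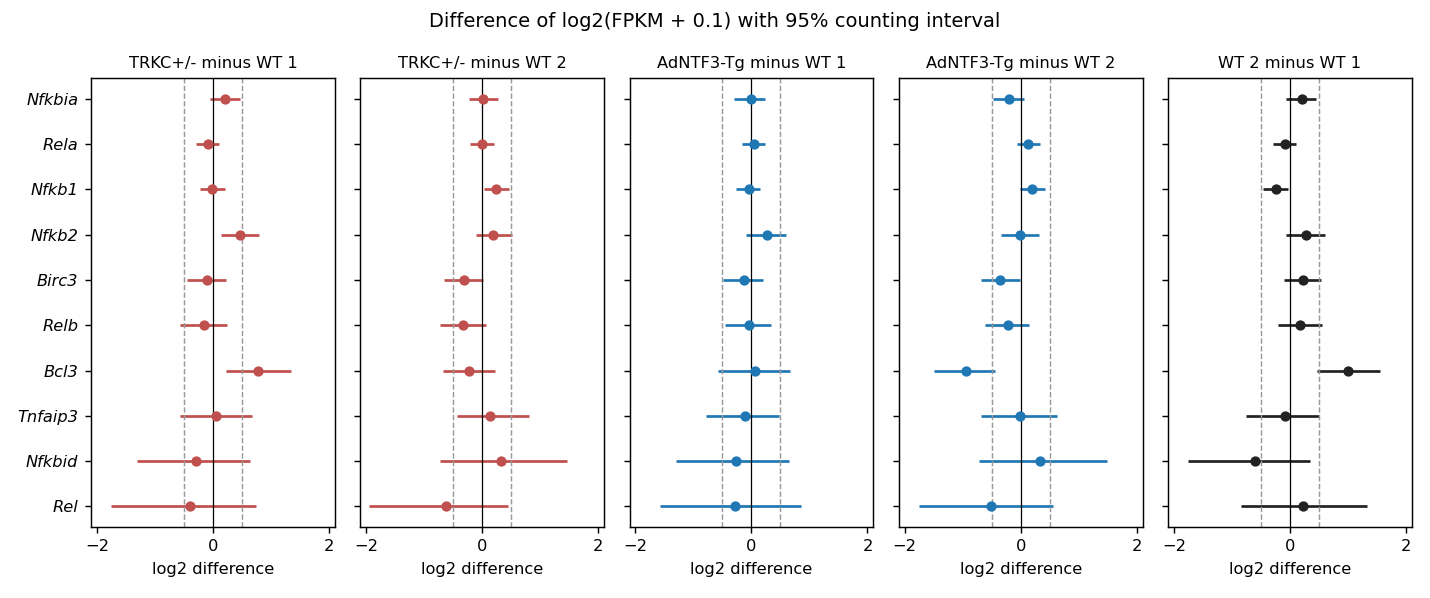
Difference of log2(FPKM + 0.1) for the 10 members in 5 pairs of libraries, with points for the difference, bars for the 95% counting interval and dashed lines at the cutoff of ±0.5. *Bcl3* lies past the cutoff with its bar off 0 for the library labelled TRKC+/- against WT 1, for AdNTF3-Tg against WT 2 and between the WT libraries (0.77, −0.94 and 1.00).

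Among the subunits with a transactivation domain, *Rela* was the most even. It had 17.67 FPKM (408 reads) in WT 1, 16.67 (390 reads) in WT 2, 16.61 (392 reads) in the library labelled TRKC+/- and 18.30 (426 reads) in AdNTF3-Tg, and the largest of its differences in pairs with a WT library was 0.13 (−0.07 to 0.34) between AdNTF3-Tg and WT 2. *Relb*, which pairs with p52 in the alternative branch of the pathway, had 5.84, 6.61, 5.25 and 5.65 FPKM in the same order, on 101 to 126 reads. Both mutant libraries were below both WT libraries, by at most 0.33, and every counting interval included 0. *Rel*, the c-Rel subunit known mainly from lymphocytes, had 0.68 FPKM (15 reads) in WT 1, 0.81 (18 reads) in WT 2, 0.49 (11 reads) in the library labelled TRKC+/- and 0.54 (12 reads) in AdNTF3-Tg. It too was lower in both mutant libraries, by 0.63 (−1.95 to 0.44 as a signed interval) and 0.51 (−1.76 to 0.56) against WT 2, which is not resolved at this depth.

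The precursors of the partners of BCL3 moved less than *Bcl3* itself. *Nfkb1* had 10.72 FPKM (380 reads) in WT 1, 9.03 (325 reads) in WT 2, 10.67 (387 reads) in the library labelled TRKC+/- and 10.36 (371 reads) in AdNTF3-Tg. WT 2 alone was low, with a difference of −0.25 (−0.47 to −0.04) from WT 1 and of 0.24 (0.03 to 0.46) between the library labelled TRKC+/- and WT 2. *Nfkb2* had 4.99 FPKM (131 reads) in WT 1, 6.08 (161 reads) in WT 2, 6.97 (186 reads) in the library labelled TRKC+/- and 6.02 (159 reads) in AdNTF3-Tg. WT 1 alone was low here, and the difference of 0.47 (0.14 to 0.80) between the library labelled TRKC+/- and WT 1 stood just under the cutoff. The ratio of *Bcl3* to the sum of *Nfkb1* and *Nfkb2*, in FPKM, was 0.185 in WT 1, 0.184 in AdNTF3-Tg, 0.283 in the library labelled TRKC+/- and 0.389 in WT 2. *Bcl3* made up 4.23% of the summed FPKM of the members in WT 1 and 7.95% in WT 2.

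The other inhibitors showed smaller differences. *Nfkbia* had 17.11 FPKM (229 reads) in WT 1, 19.71 (266 reads) in WT 2, 19.86 (271 reads) in the library labelled TRKC+/- and 16.98 (228 reads) in AdNTF3-Tg. Its libraries stood in the same order of low and high as those of *Bcl3*, with differences of at most 0.21 in pairs with a WT library, whose counting intervals included 0. *Nfkbid*, which encodes the nuclear IκBNS, had 1.29, 0.81, 1.04 and 1.05 FPKM in WT 1, WT 2, the library labelled TRKC+/- and AdNTF3-Tg, on 14 to 22 reads. It passed the cutoff only between the WT libraries, by −0.61 (−1.76 to 0.35) in WT 2 against WT 1.

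Of the ubiquitin regulators, *Tnfaip3*, which encodes the deubiquitinase A20 that ends signalling, was between 1.11 and 1.26 FPKM in all libraries on 42 to 49 reads, and its largest difference in a pair with a WT library was 0.14 (−0.44 to 0.81). *Birc3*, which encodes the ubiquitin ligase cIAP2, had 6.19 FPKM (149 reads) in WT 1, 7.22 (176 reads) in WT 2, 5.77 (142 reads) in the library labelled TRKC+/- and 5.65 (137 reads) in AdNTF3-Tg. Both mutant libraries were below both WT libraries, and the interval excluded 0 only for AdNTF3-Tg against WT 2, at −0.35 (−0.69 to −0.02).

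Because *Bcl3* split the libraries into WT 1 and AdNTF3-Tg below WT 2 and the library labelled TRKC+/-, that order was counted in the other genes, a choice made after the values of *Bcl3* were seen. It was present in 13.2% of the 15275 genes and, among the members, in *Bcl3*, *Nfkb2* and *Nfkbia*. By the distance between centred log2 profiles over the 4 libraries, the genes most like *Bcl3* among 12751 averaging 1 FPKM or more were *Zfp51* (distance 0.135), *Gm2026* (0.14), *Zfp677* (0.143), *Slc1a6* (0.18) and *Tifa* (0.198). The counts of *Zfp51* and *Gm2026* were fractional, so that the division of reads with similar genes is uncertain. *Slc1a6*, a glutamate transporter gene, and *Tifa*, which encodes an adaptor that binds TRAF proteins, rested on 23 to 42 and 20 to 37 reads. *Nfkbia* and *Nfkb2* ranked 554 and 771 by the same measure, and the other members ranked came later, while *Rel* averaged less than 1 FPKM and was not ranked. With 4 libraries, of which each gene shares all, such a likeness is a description.

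The well-covered genes around *Bcl3* were more even over the libraries. Within 100 kb of it, *Tomm40*, *Bcam*, *Nectin2* and *Pvr* had more than 100 reads in every library and passed the cutoff in no pair of libraries, with a log2 range of at most 0.40 against 1.00 for *Bcl3*. *Tomm40* had 43.9 to 48.1 FPKM, *Bcam* 274.5 to 298.5, *Nectin2* 15.8 to 19.1 and *Pvr* 6.00 to 7.93. *Gm19345* and *Ceacam16* rested on 15 or fewer reads per library and had log2 ranges of 0.82 and 1.44. *Ceacam16*, with 1 to 5 reads, was past the cutoff, higher, in both mutant libraries against both WT libraries, with every counting interval including 0, and *Cblc* and *Ceacam19* were not listed in every library. *Relb*, itself a member, lies 179 kb from *Bcl3* and ranked 3333 in likeness to it.

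Of 106 other genes of the pathway in 9 lists, 97 were listed in every library. In the library labelled TRKC+/-, 2 of these were higher and 3 lower than both WT libraries by the cutoff (5.15%, against 4.27% of all genes). In AdNTF3-Tg, 1 was higher and 7 lower (8.25%, against 5.7% of all genes). No gene passed among the 3 other IκB proteins or the 12 ubiquitin regulators in either mutant library.

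Most of the receptors, ligands and kinases that passed rested on few reads. *Cd40*, a TNF receptor family member, was lower in AdNTF3-Tg with 9 reads against 14 and 13 in WT 1 and WT 2. *Ikbke*, which encodes an IKK-related kinase, was lower in AdNTF3-Tg with 21 reads against 34 and 32. *Traf5*, a signalling adaptor gene, was higher in the library labelled TRKC+/- with 29 reads against 18 and 17. The counting intervals of these 3 genes included 0 against both WT libraries. *Il1b*, which encodes interleukin-1β, was lower in that library with 2 reads against 4 in WT 1 and 18 in WT 2, log2 differences of −0.72 (−4.50 to 1.77) and −2.61 (−6.33 to −1.12), and had 4 reads in AdNTF3-Tg. *Ltb* and *Cxcl1* passed on 8 or fewer reads per library.

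Among the 16 targets listed in every library, *Ccl5*, a chemokine gene, was lower in both mutant libraries, with 3 reads in the library labelled TRKC+/- and 1 in AdNTF3-Tg against 6 in WT 1 and 13 in WT 2. Its counting intervals excluded 0 against WT 2 only, at −1.99 (−4.57 to −0.26) and −3.22 (−9.10 to −0.96). *Lcn2*, which encodes an iron-sequestering lipocalin, was higher in AdNTF3-Tg with 13 reads against 7 and 9, and both counting intervals included 0 (−0.56 to 2.44 and −0.80 to 1.94). *Cxcl10*, a chemokine gene that interferon and NF-κB both drive, followed the order of *Bcl3*. It had 1.08 FPKM (10 reads) in WT 1, 1.51 (14 reads) in AdNTF3-Tg, 5.09 (48 reads) in the library labelled TRKC+/- and 5.05 (47 reads) in WT 2. The library labelled TRKC+/- differed by 2.14 (1.22 to 3.37) from WT 1 and by 0.01 from WT 2, and AdNTF3-Tg by −1.68 (−2.72 to −0.85) from WT 2 and by 0.45 from WT 1. That order was present in 5 of the 16 targets, *Vcam1*, *Ccl2*, *Cxcl10*, *Csf1* and *Plau*.

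**Figure D4:**
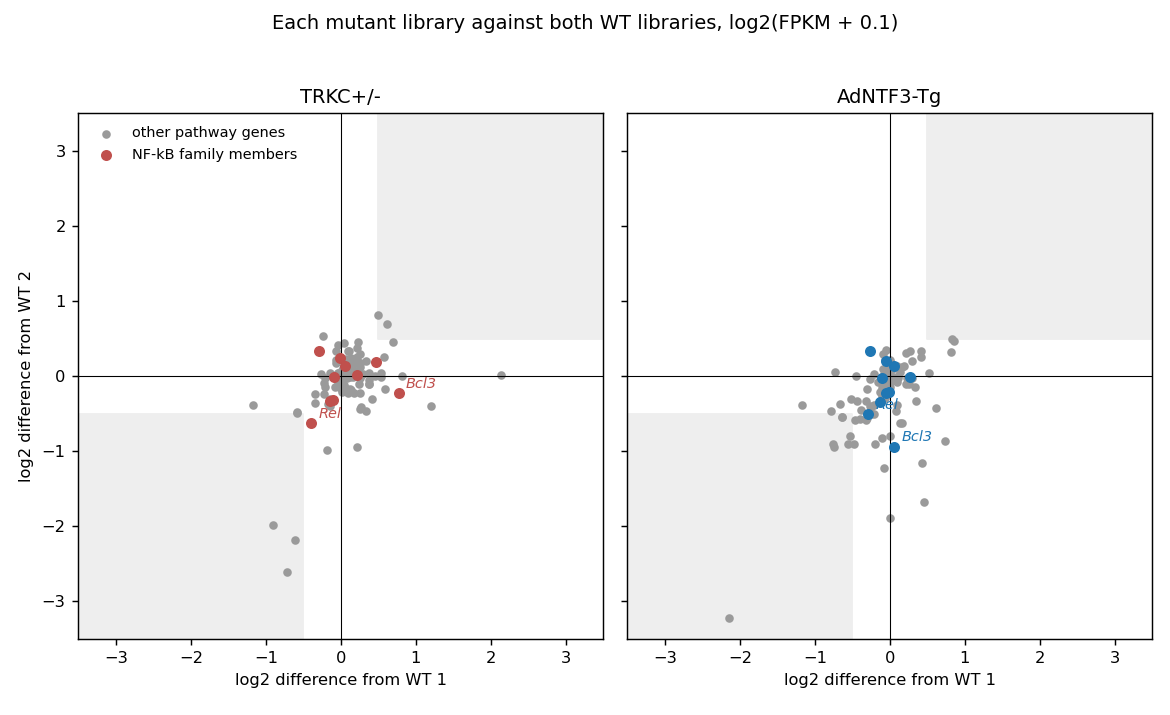
Log2 difference of each mutant library from WT 1 (x axis) and from WT 2 (y axis), with 1 point per gene for the 10 members (coloured) and the other pathway genes listed in every library (grey). Grey squares mark genes past ±0.5 against both WT libraries, and no coloured point lies in them. *Bcl3* lies near one axis in each panel, at 0.77 and −0.23 and at 0.06 and −0.94.

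In a pair of neighbouring pathways the order of *Bcl3* was present in 7 of 11 genes of gp130 and STAT3 signalling and in 10 of 12 interferon genes, against 13.2% of all genes, a difference for which no test was made. The lists were chosen with earlier results of these data known. They include *Mx1*, which the study had named as oppositely regulated in these libraries, so the counts are a description and no evidence of enrichment. In the other lists the order was present in 5 of 16 targets, 4 of 15 adaptors, 3 of 12 receptors, 1 of 3 other IκB proteins, 1 of 6 ligands, 1 of 10 kinases and 0 of 12 ubiquitin regulators. In some of these genes the libraries hardly differed, such as *Stat3* with 59.0 to 62.8 FPKM. Of the gp130 and STAT3 genes, *Lif*, *Lifr*, *Cntfr* and *Clcf1* did not follow the order, and *Cntfr* was lowest in WT 2 (31.4 FPKM, against 41.4 in WT 1). STAT3 is activated through the receptor chain gp130 by cytokines such as interleukin-6, and *Bcl3* is known as a STAT3 target. Whether STAT3 acted on *Bcl3* in these ganglia was not tested. *Socs3*, the feedback inhibitor of this pathway, had 4.70 FPKM (110 reads) in WT 1, 4.07 (96 reads) in AdNTF3-Tg, 5.65 (135 reads) in the library labelled TRKC+/- and 7.72 (183 reads) in WT 2. *Osmr*, the oncostatin M receptor gene, had 2.24, 2.07, 3.01 and 3.76 FPKM in that order, on 87 to 159 reads. In AdNTF3-Tg *Socs3* differed by −0.91 (−1.30 to −0.56) from WT 2 and by −0.20 (−0.63 to 0.19) from WT 1, and *Osmr* by −0.83 (−1.26 to −0.48) and −0.11 (−0.56 to 0.32). Both genes, like *Bcl3*, thus passed the cutoff in AdNTF3-Tg only with WT 2 as control. *Lif*, a gp130 cytokine gene, was the only gene of this list past the cutoff against both WT libraries, lower in AdNTF3-Tg with 9 reads against 17 in WT 1 and 20 in WT 2, and both counting intervals included 0 (−2.29 to 0.31 and −2.46 to 0.05).

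The interferon genes differed from *Bcl3* in WT 1, where most were not as low as in AdNTF3-Tg. *Isg15*, a ubiquitin-like modifier gene, had 19.4 FPKM (119 reads) in WT 1, 21.4 (130 reads) in WT 2, 23.3 (144 reads) in the library labelled TRKC+/- and 11.4 (69 reads) in AdNTF3-Tg. *Isg15*, *Ifit3* and *Irf7*, the last encoding the factor that amplifies the interferon response, were lower in AdNTF3-Tg than in both WT libraries, with log2 differences of −0.76, −0.56 and −0.53 against WT 1 and by −0.90, −0.90 and −0.80 against WT 2, and all 6 counting intervals excluded 0. The counts of *Ifit3* were fractional, and its share of reads is uncertain. The median of the 12 genes was −0.35 in AdNTF3-Tg and 0.17 in the library labelled TRKC+/- relative to the WT mean, against 0.00 over all genes. None passed the adjusted p in edgeR. No marker list of a cell type followed the order of *Bcl3*, which was present in 1 marker gene of all 10 lists, *Cd4*.

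**Figure D5:**
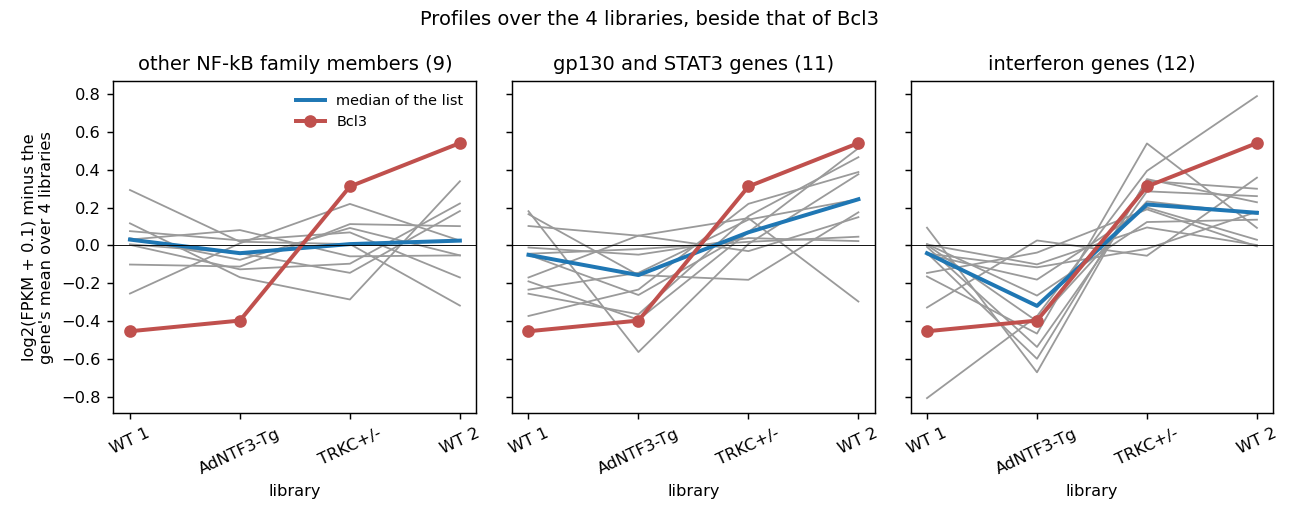
Log2(FPKM + 0.1) relative to each gene's own mean over the libraries, for *Bcl3* (red), the genes of each list (grey) and the median of the list (blue), with the libraries on the x axis. The median of the other members stays near 0, the median of the interferon genes is lowest in AdNTF3-Tg, and *Bcl3* is about as low in WT 1 as in AdNTF3-Tg.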

How the data were processed

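RNA of SG from 4 groups of mice was enriched with oligo(dT) and sequenced as single-end reads, and by the methods text SOAPnuke (v1.5.2) was used as filter and HISAT2 (v2.0.4) for mapping to mm9. The submitters' processing notes name RSEM and mm10 instead. The authors deposited, per gene, an expected count of reads, which divides reads shared by several genes, and an FPKM value, and genes without reads are not listed. Symbols and positions are from RefSeq on GRCm38.p6 (17619 of 17667 identifiers matched). Differences were computed here on log2(FPKM + 0.1), which understates the change of low genes. Expected counts were rounded for Clopper-Pearson intervals and for edgeR (4.0.16). Methods were tested on simulated data. Genes named are the members, *Ntrk3*, *Ntf3*, *Cxcl10*, up to 3 genes per list, library and direction past the cutoff with at least 10 reads in 1 library, the 5 genes nearest *Bcl3* in profile, and genes within 100 kb of it. *Ltb*, *Cxcl1*, *Socs3*, *Osmr*, *Stat3*, *Adipoq*, *Plin1*, *Cidec* and the genes listed by whether they followed the order of *Bcl3* were named after their values were seen. The members and lists were chosen with earlier results of these data known. The design text names WT mice beside each mutant group, so the spread between the 2 WT libraries, which p-values measure, may hold cohort as well as pool and technical error, and these cannot be told apart. Alternatives were other pseudocounts, filters, scalings, DESeq2 (1.42.0) and either WT library alone.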

Additional observations from a re-analysis of the deposited data

How the results depend on the processing

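No paired analysis was possible because the mutant groups have 1 library each and the labels link neither to a WT library. The control decided the calls. With a single WT library as control, the members past the cutoff ranged from 1 to 1 in the library labelled TRKC+/- (*Rel* without WT 1, *Bcl3* without WT 2) and from 0 to 2 in AdNTF3-Tg (*Rel* and *Bcl3* without WT 1), where 0 passed against both, and the genes past it ranged from 1632 to 1933 and from 2033 to 2116, against 653 and 871 with both. The log2 difference of *Bcl3* from the WT mean was 0.27 and −0.44 (library labelled TRKC+/-, then AdNTF3-Tg), ranged from −0.23 to 0.77 and from −0.94 to 0.06 with a single WT library, and from 0.21 to 0.28 and from −0.45 to −0.37 under other pseudocounts and scalings. Under these, with a filter and with genes not listed taken as 0, still 0 members passed against both WT libraries. The genes past the cutoff numbered 105 and 165 with a pseudocount of 1 FPKM, 209 and 332 in genes averaging 1 FPKM or more, and 1315 and 1552 with genes not listed taken as 0. In the library labelled TRKC+/- the excess of lower over higher genes (381 and 272) turned under some settings. It was 640 lower and 675 higher with genes not listed taken as 0, and 904 lower and 1029 higher without WT 1. In the library labelled TRKC+/-, 1 gene was called by edgeR, 2 with DESeq2's size factors, 2 by DESeq2, 2 with only genes listed in all 4 tables and 0 without a filter (230 at an unadjusted p under 0.05), with no member among them, and in AdNTF3-Tg 0 under each. Of 72 differences of the other members recomputed with other pseudocounts and scalings, 70 moved by less than the spread of the WT libraries, and 2 of *Rel* moved with a pseudocount of 1 FPKM. With a single WT library, 5 of 36 turned sign, those of *Nfkb1* and *Nfkbid* in both mutant libraries without WT 2 and of *Nfkb2* in AdNTF3-Tg without WT 1. Depth limits *Rel*, *Nfkbid* and *Tnfaip3*, with 11 to 49 reads, most.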

Other observations

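*Nfkbiz*, which encodes the atypical nuclear inhibitor IκBζ, did not follow the order of *Bcl3*. It had 0.90 FPKM (27 reads) in WT 1, 1.31 (40 reads) in WT 2, 1.35 (43 reads) in the library labelled TRKC+/- and 1.66 (52 reads) in AdNTF3-Tg, so that AdNTF3-Tg was the highest and not among the lowest. Its log2 difference in AdNTF3-Tg was 0.82 (counting interval 0.23 to 1.65) against WT 1 and 0.32 (−0.24 to 1.02) against WT 2. *Ccl2*, a monocyte chemokine gene and NF-κB target, had 5.03, 5.87 and 4.77 FPKM in WT 1, the library labelled TRKC+/- and AdNTF3-Tg and 11.33 FPKM (74 reads) in WT 2 alone. *Ngfr*, which encodes the p75 neurotrophin receptor that can activate NF-κB, was among the most abundant genes of the lists, with 316 to 360 FPKM, and differed by less than 0.20 in every pair of libraries. These 3 genes were chosen after their values were seen.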
